A study of Homo sapiens with 30 samples.

Results

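This section describes 9 adhesion genes in Jurkat E6-1 cells during activation: the integrin alpha chains ITGA4, ITGA5, ITGA6, ITGAE and ITGAL, the integrin beta chains ITGB1, ITGB2 and ITGB7, and SELPLG. They were taken by symbol from a count table of 54300 gene symbols, and all 9 passed the filter on low counts that left 21554 symbols for testing. The set holds no selectin: SELPLG encodes PSGL-1, the glycoprotein on leukocytes that selectins bind, so it is described here as the ligand. Jurkat E6-1 is an established human T cell leukaemia line. The WT groups are unedited cells, and the KO groups are cells that lack isoform 1 of SLAMF6, a homophilic receptor of T cells, through the change that the labels write SLAMF6∆17-65. Both lines were stimulated with PMA, a phorbol ester that activates protein kinase C, together with ionomycin, a calcium ionophore, so activation bypassed the T cell receptor. RNA was sequenced at 0 (unstimulated), 6, 12, 24 and 36 h, which makes 10 groups of 3 libraries. The time labels carry no unit, and hours were read from the treatment protocol, which describes an ELISA. The labels do not say whether the KO line is 1 clone or whether the libraries of a group are separate cultures, so the p-values measure the spread between these libraries, which may be technical. The title of the series names isoform 3 rather than a loss of isoform 1, and the groups here follow the design text.

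An integrin is a pair of 1 alpha and 1 beta chain, and the pairing sets what the cell can hold on to. ITGAL pairs with ITGB2 to form LFA-1, the receptor for ICAMs that holds T cells to antigen-presenting cells and to endothelium. ITGA4 pairs with ITGB1 to form VLA-4, which binds VCAM1 and fibronectin, or with ITGB7 to form the gut-homing receptor for MAdCAM. ITGAE pairs with ITGB7 and binds E-cadherin on epithelium, while ITGA5 and ITGA6 pair with ITGB1 and bind fibronectin and laminin. PSGL-1 acts a step earlier, in rolling, and must be sulfated and glycosylated before P-selectin binds it. Integrins at the surface are switched to high affinity from inside the cell through RAP1, talin and kindlin, and none of that is seen in messenger RNA levels.

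Library totals ran from 5.64 to 28.2 M counts with a median of 20.5 M, and 3 of the 30 libraries held under 10 M. Levels are TMM-scaled CPM, counts as a share of the library's scaled total, in the order of the libraries' title numbers. SLAMF6 itself stood at 19.0, 25.1 and 19.4 CPM in WT and 18.2, 21.0 and 18.6 in KO at 0 h, and at 101, 103 and 112 against 144, 125 and 149 at 36 h. Counts summed over a gene cannot show whether 1 isoform is missing, so they do not check the KO label. Across 10682 genes, 4 libraries lay farther from the others of their group than any library of the groups without one (mean root-mean-square log2 distance 0.377 to 0.430, against 0.215 to 0.348): KO 6 h library 5, KO 12 h library 7, WT 24 h library 12 and KO 24 h library 12. None of the 30 was nearer to another group than to its own. The activation genes IL2 and CD69 moved with them. IL2 stood at 108, 26.9 and 104 CPM in KO at 6 h (libraries 4, 5 and 6), 49.9, 10.7 and 12.6 in KO at 12 h (libraries 7, 8 and 9), 30.1, 28.3 and 74.5 in WT at 24 h and 92.4, 92.7 and 179 in KO at 24 h (libraries 10, 11 and 12). Calls of the 9 genes that change without these 4 libraries are given with and without them, and the part of the activation state in those results was not tested. The 4 were picked after the data were seen, for their distance from their own group. Leaving them out takes away part of the spread that the p-values measure. Lower adjusted p-values and calls gained in that fit are therefore not added evidence. In the titles the letter A marks WT and B marks KO from 0 to 24 h, and C marks both genotypes at 36 h. What the letters stand for is not given in the sources used here, so from 0 to 24 h letter and genotype cannot be told apart, while the comparison of the genotypes at 36 h lies within letter C. Every change from 0 h to 36 h crosses letters, from A to C in WT and from B to C in KO. In those changes letter and time cannot be told apart, and the difference in response at 36 h also draws on the letters A and B.

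**Figure D1:**
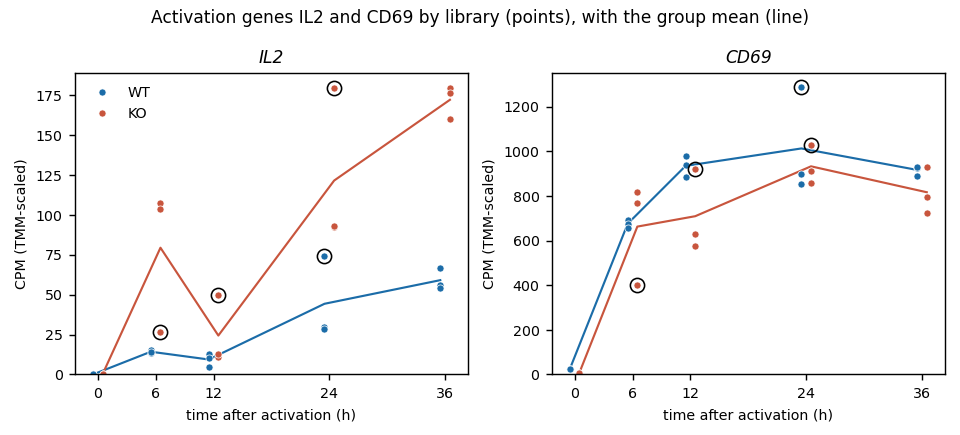
Level of IL2 and CD69 in each library (points; y axis in TMM-scaled CPM) against time after activation in h, with the group means joined by lines; black rings mark the 4 libraries that stand apart. In KO the ringed library at 6 h is the lowest of its group for IL2 and CD69, and the ringed libraries at 12 and 24 h are the highest.

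The libraries carried the marks of T cells. All 12 T cell markers, among them CD3D, CD3E, CD2 and LCK, reached 1 CPM, and their summed level ran from 3920 to 6418 CPM. Summed levels were 1.54 to 14.0 CPM over 10 monocyte and myeloid markers, 10.5 to 33.7 over 7 B cell markers (most of it CD79A, at up to 32.2 CPM), 0.176 to 2.84 over 8 platelet and erythroid markers and 0.844 to 6.59 over 8 epithelial and fibroblast markers. LYZ, PF4, PPBP, HBB and EPCAM, which define the other cell types, had no count in 18 to 24 of the 30 libraries. The monocyte and myeloid list was highest in KO at 36 h (9.60 to 14.0 CPM), and it holds ITGAM and ITGAX, which are integrin chains themselves.

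Activation moved most of the 9 genes in both genotypes. SELPLG, ITGAL and ITGA4 fell at all 4 times in WT and in KO. ITGB2 rose at all 4 times in KO and at 6, 24 and 36 h in WT, ITGB1 rose at all 4 times in WT and at 24 and 36 h in KO, and ITGAE rose at 6 h and had fallen below its starting level by 24 h. As the RNA is from whole cultures, a change in the share of cells that express a gene and a change in RNA per cell cannot be told apart.

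Each later time was compared with 0 h in edgeR's quasi-likelihood test on all 21554 symbols, with Benjamini-Hochberg adjusted p under 0.05 as the call. In WT at 6 h 3 of the 9 members rose (11.8% of all tested genes did) and 3 fell (10.5%). At 12 h 1 rose (14.8%) and 3 fell (15.6%), at 24 h 3 rose (17.3%) and 4 fell (17%), and at 36 h 2 rose (20.1%) and 5 fell (19%). In KO the counts were 2 higher (14%) and 3 lower (13.2%) at 6 h, 3 (14.1%) and 3 (13.7%) at 12 h, 3 (16.1%) and 4 (16.7%) at 24 h, and 3 (18.6%) and 4 (18%) at 36 h. In WT at 12 h the share of members that rose was below that of all genes. The median log2 fold change of the members was -0.63 in WT and -0.14 in KO at 36 h, where the median over all genes was 0.01 and 0.04. The all-gene median was largest in WT at 12 h, at 0.12. Without the 4 libraries that stand apart, 6 members were called in WT at 24 h and 5, 8 and 8 in KO at 6, 12 and 24 h, beside 7, 5, 6 and 7 with them. Calls over all genes were then 7555, 6078, 6125 and 7079, beside 7401, 5859, 5985 and 7064. The WT and KO comparisons have no library in common. Within a genotype the same 0 h libraries serve all 4 comparisons, so agreement over the 4 times is not separate evidence.

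**Figure D2:**
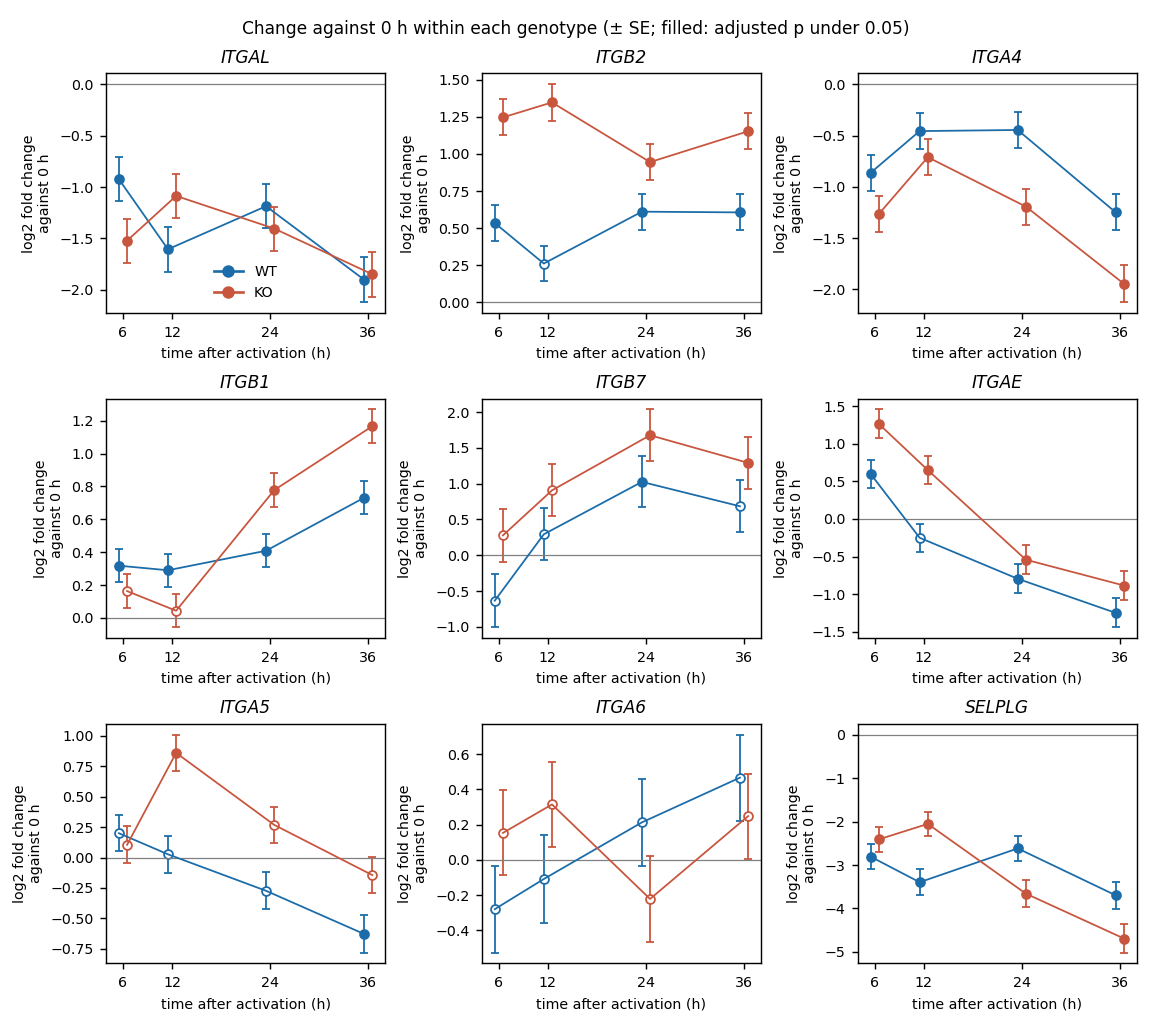
Log2 fold change of each gene against 0 h (y axis; the scale differs between panels) at 6, 12, 24 and 36 h in WT (blue) and KO (red), with standard errors; filled points have an edgeR adjusted p under 0.05. SELPLG, ITGAL and ITGA4 lie below 0 at every time in both genotypes, and ITGB2 lies above 0.

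SELPLG (chr12:108622277-108633959 on the minus strand; this and all gene positions below are from GENCODE 29 on GRCh38, which is not the authors' build) showed the largest change of the 9. Its group means spanned 25.7-fold. In WT it stood at 228, 179 and 233 CPM before activation and at 30.9, 33.8 and 26.8 at 6 h, 17.3, 20.8 and 22.7 at 12 h, 45.9, 36.7 and 21.7 at 24 h and 16.6, 15.9 and 16.7 at 36 h. In KO it stood at 329, 299.8 and 341 at 0 h, 42.4, 95.1 and 44.9 at 6 h, 42.1, 102 and 90.1 at 12 h, 33.3, 30.7 and 13.1 at 24 h and 13.8, 13.0 and 10.9 at 36 h. No library after activation reached the lowest library at 0 h of its genotype. The log2 fold change against 0 h was -2.81 ± 0.29 (SE; edgeR adjusted p = 3.91e-09) at 6 h and -3.70 ± 0.31 (edgeR adjusted p = 8.86e-12) at 36 h in WT, and -2.41 ± 0.29 (edgeR adjusted p = 3.26e-08) and -4.69 ± 0.32 (edgeR adjusted p = 5.73e-14) in KO.

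SELPLG stood higher in KO than in WT early after activation, and the 6 h call was lost in some fits without 1 library. At 12 h the KO libraries were all above the WT libraries, with a log2 difference of 1.94 ± 0.29 (edgeR adjusted p = 1.76e-05). At 6 h the difference was 1.00 ± 0.28 (edgeR adjusted p = 0.0188), and the call was lost (log2 0.52, edgeR adjusted p = 0.287) without KO library 5, which had 95.1 CPM of SELPLG and 26.9 CPM of IL2. It was also lost without WT library 4 (log2 1.01, edgeR adjusted p = 0.058) or WT library 6 (log2 0.91, edgeR adjusted p = 0.0912). Without all 4 libraries that stand apart, which takes away part of the spread, the differences were 0.51 (edgeR adjusted p = 0.00538) at 6 h and 2.24 (edgeR adjusted p = 1.87e-16) at 12 h. In KO at 12 h the libraries with the higher SELPLG, 8 and 9, were those with the lower IL2. Before activation KO was higher in all 3 libraries by 0.60 ± 0.27, which did not pass the test (edgeR adjusted p = 0.204). At 24 and 36 h the values were -0.44 ± 0.29 and -0.39 ± 0.31 (edgeR adjusted p = 0.413 and 0.472).

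**Figure D3:**
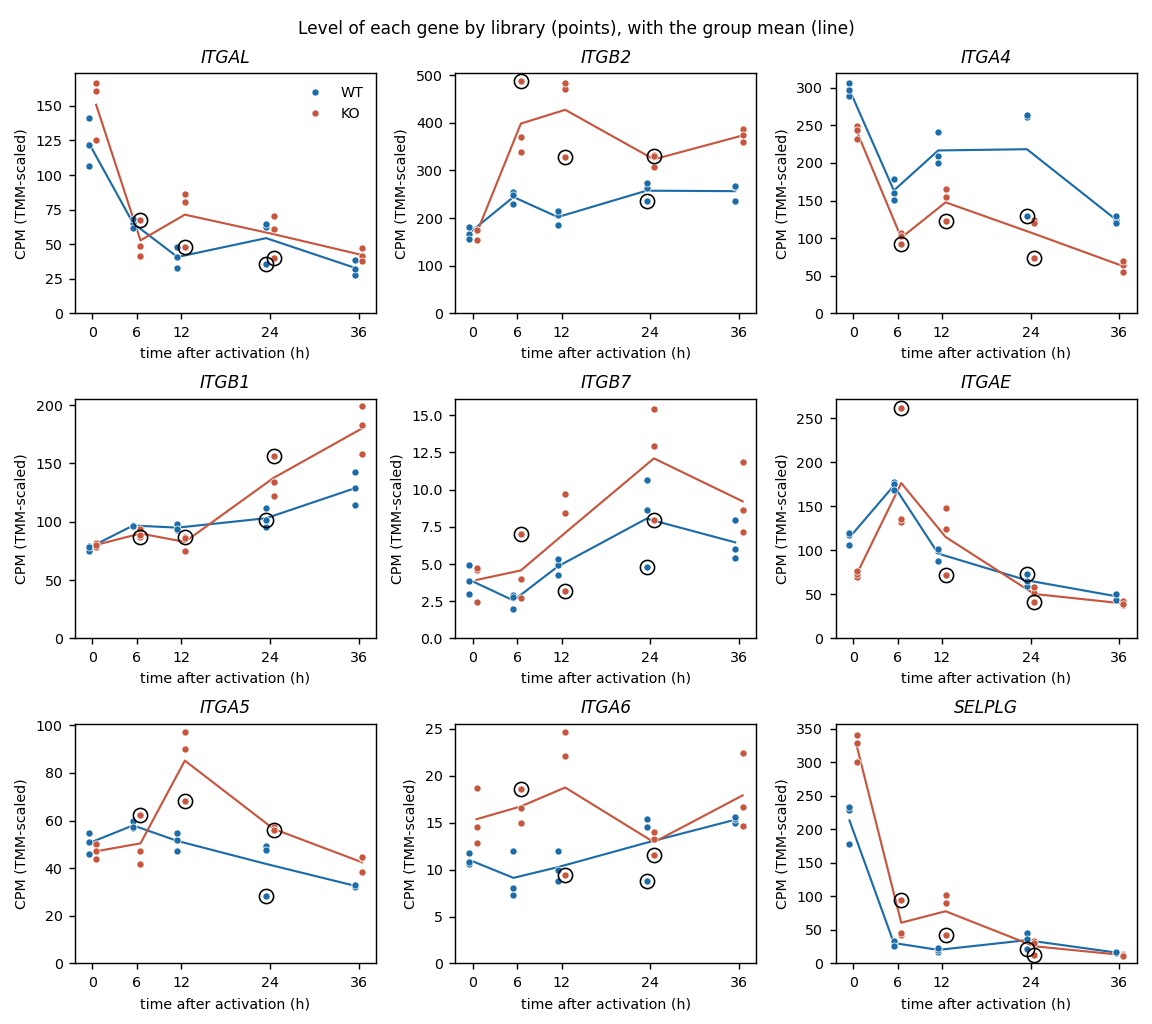
Level of each of the 9 genes in every library (points; y axis in TMM-scaled CPM from 0) against time after activation in h, with the group means joined by lines; WT is blue, KO red, and black rings mark the 4 libraries that stand apart. SELPLG falls from 179 CPM or more in all libraries at 0 h to 16.7 CPM or less in all libraries at 36 h, and ITGB2 is higher in KO than in WT in every library from 6 h on.

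The LFA-1 chains moved apart. ITGAL (chr16:30472658-30523185, plus strand), which provides the ligand-binding alpha chain, fell in both genotypes, while ITGB2 (chr21:44885953-44931989, minus strand), the beta chain that LFA-1 shares with the other leukocyte integrins, rose. ITGAL stood at 122, 107 and 141 CPM in WT at 0 h and at 65.6, 61.4 and 68.4 at 6 h, 40.7, 33.1 and 48.2 at 12 h, 62.8, 64.8 and 35.5 at 24 h and 38.8, 27.9 and 32.0 at 36 h. In KO it stood at 167, 125 and 161 at 0 h, then 41.6, 67.7 and 48.8 at 6 h, 47.6, 80.4 and 86.0 at 12 h, 70.6, 61.1 and 40.0 at 24 h and 46.9, 41.5 and 37.9 at 36 h. Every library after activation was below every library at 0 h of its genotype. At 36 h the log2 fold change was -1.90 ± 0.22 in WT (edgeR adjusted p = 1.08e-08) and -1.85 ± 0.22 in KO (edgeR adjusted p = 1.45e-08). Between the genotypes ITGAL was called at 12 h alone of the 5 times, with KO higher by 0.81 ± 0.22 (edgeR adjusted p = 0.0112) although the lowest KO library, 7, at 47.6 CPM, lay below the highest WT library at 48.2. This call was lost without WT library 8 (log2 0.68, edgeR adjusted p = 0.0911), KO library 8 (log2 0.73, edgeR adjusted p = 0.0534) or KO library 9 (log2 0.68, edgeR adjusted p = 0.0677). With the 4 libraries that stand apart left out it was 1.04 (edgeR adjusted p = 8.54e-07), and at 6 h the value, -0.31 ± 0.21 with all libraries (edgeR adjusted p = 0.445), became -0.54 (edgeR adjusted p = 0.0104).

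ITGB2 rose further in KO than in WT. Before activation its levels overlapped, 167, 157 and 182 CPM in WT and 175, 153 and 174 in KO (log2 difference -0.01, 95% interval -0.24 to 0.23). WT then stood at 254, 229 and 249 at 6 h, 205, 185 and 216 at 12 h, 263, 273 and 237 at 24 h and 265, 236 and 268 at 36 h (CPM). KO stood at 369, 487 and 339 at 6 h, 327, 472 and 483 at 12 h, 333, 307 and 329 at 24 h and 386, 374 and 360.4 at 36 h. From 6 h on, every KO library was above every WT library of the same time. The log2 difference was 0.71 ± 0.12 at 6 h (edgeR adjusted p = 9.32e-05), 1.08 ± 0.12 at 12 h (edgeR adjusted p = 9.11e-08) and 0.54 ± 0.12 at 36 h (edgeR adjusted p = 0.00175), where both genotypes share the title letter. At 24 h it was 0.33 ± 0.12 and did not pass the test (edgeR adjusted p = 0.0821). Leaving out the 4 libraries that stand apart, the 6 and 12 h values were 0.53 and 1.24 (edgeR adjusted p = 7.20e-05 and 3.28e-13). The exons of ITGB2 share 303 bases with ITGB2-AS1 on the other strand. The sources used here do not say whether counting used strand, and the counts of ITGB2-AS1 came to 4.62% of those of ITGB2.

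ITGA4 (chr2:181457202-181536187, plus strand) fell with activation and was the one member lower in KO at every time. In WT it stood at 289, 307 and 297 CPM at 0 h and 160.1, 151 and 179 at 6 h, 209, 199.8 and 241 at 12 h, 261, 264 and 129.9 at 24 h and 125, 129.97 and 121 at 36 h. In KO it stood at 249.6, 244 and 232 at 0 h, 106, 92.6 and 102 at 6 h, 122, 165 and 155 at 12 h, 124, 120.4 and 73.1 at 24 h and 64.1, 69.8 and 54.3 at 36 h. At each of the 5 times all 3 KO libraries lay below all 3 WT libraries. The log2 difference was -0.30 ± 0.17 at 0 h (edgeR adjusted p = 0.349, not called), -0.70 ± 0.17 at 6 h (edgeR adjusted p = 0.00692), -0.55 ± 0.17 at 12 h (edgeR adjusted p = 0.0338), -1.05 ± 0.18 at 24 h (edgeR adjusted p = 9.20e-05) and -0.995 ± 0.18 at 36 h (edgeR adjusted p = 1.37e-04). At 36 h the KO mean, 62.7 ± 7.86 CPM (SD, n = 3), was about a log2 unit below the WT mean of 125 ± 4.74.

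Not all of the ITGA4 calls were equally firm. The 12 h difference was lost without WT library 7, 8 or 9 or KO library 7 or 9 (log2 -0.60 to -0.42, edgeR adjusted p = 0.0583 to 0.165). At 24 h library 12 was low in both genotypes, at 129.9 CPM in WT and 73.1 in KO, and without the 4 libraries that stand apart the difference was -1.09 (edgeR adjusted p = 1.29e-09). When only the 6 libraries of 24 h entered the fit it was -1.05 with an edgeR adjusted p of 0.0544. Within WT, the fall to 36 h was -1.25 ± 0.18 (edgeR adjusted p = 4.71e-07). The smaller falls at 12 h (-0.46 ± 0.17, edgeR adjusted p = 0.0434) and 24 h (-0.45 ± 0.17, edgeR adjusted p = 0.0442) were each lost in several fits: at 12 h without WT 0 h library 1, 2 or 3 or WT 12 h library 7 or 8 (log2 -0.51 to -0.40, edgeR adjusted p = 0.0531 to 0.145), and at 24 h without WT 0 h library 1, 2 or 3 or WT 24 h library 12 (log2 -0.46 to -0.17, edgeR adjusted p = 0.0789 to 0.44). With RLE scaling the edgeR adjusted p was 0.0654 at 12 h and 0.0526 at 24 h, with DESeq2 the adjusted p at 12 h was 0.0619, and with the 4 libraries that stand apart left out the 24 h value was -0.17 (edgeR adjusted p = 0.201). In KO the fall was called at all 4 times with every single library left out, and reached -1.95 ± 0.18 at 36 h (edgeR adjusted p = 7.72e-11). CERKL, on the other strand, ends 489 bases from ITGA4 and followed it across the 10 group means (r = 0.99), at 18.5% of its counts.

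ITGB1 (chr10:32900319-33005792, minus strand), the beta chain of the VLA integrins, rose while ITGA4 fell. It stood at 79.1, 75.1 and 78.5 CPM in WT and 82.1, 78.0 and 80.4 in KO at 0 h and differed by 0.05 (95% interval -0.15 to 0.25). Later WT stood at 97.4, 96.3 and 96.6 at 6 h, 97.9, 92.9 and 94.1 at 12 h, 112, 95.7 and 101 at 24 h and 129, 114 and 143 at 36 h. KO stood at 94.0, 87.3 and 88.4 at 6 h, 87.3, 86.3 and 74.6 at 12 h, 134, 122 and 157 at 24 h and 183, 158 and 199 at 36 h. The rise was late and larger in KO: at 36 h it was 0.73 ± 0.10 in WT (edgeR adjusted p = 3.71e-07) and 1.17 ± 0.10 in KO (edgeR adjusted p = 2.05e-11), and all KO libraries were above all WT libraries at 24 and 36 h. At 6 and 12 h all KO libraries were below all WT libraries, with log2 differences of -0.11 and -0.20 that did not pass the test (edgeR adjusted p = 0.615 and 0.211). KO was higher by 0.42 ± 0.10 at 24 h (edgeR adjusted p = 0.00561) and 0.48 ± 0.10 at 36 h (edgeR adjusted p = 8.80e-04). The 24 h call was lost without WT library 11 (log2 0.37, edgeR adjusted p = 0.0502), without KO library 12 (log2 0.33, edgeR adjusted p = 0.0727), without the 4 libraries that stand apart (0.31, edgeR adjusted p = 0.0856) and with only the 2 groups in the fit (edgeR adjusted p = 0.0829). The early WT rises, 0.32 ± 0.10 at 6 h and 0.29 ± 0.10 at 12 h (edgeR adjusted p = 0.0202 and 0.0285), were lost without any 1 of the 6 libraries compared (log2 0.27 to 0.33, edgeR adjusted p = 0.0515 to 0.11, and log2 0.23 to 0.30, edgeR adjusted p = 0.054 to 0.157) and without the filter on low counts (edgeR adjusted p = 0.125 and 0.227). The pseudogene ITGB1P1, which could take reads of ITGB1, had 0 to 0.451 CPM in any library.

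The sequences before the starts of these genes are shown because ITGA4 and ITGB1 encode partners that moved in opposite directions, and ITGA5, another chain that pairs with ITGB1, has the one AP-1 match of the set. RefSeq promoter windows (GRCh38.p14, 250 bases before to 50 after a start) were at hand for 6 of the 9 members, in 8 windows, since ITGA6 and ITGB1 have 2 starts each. Only the bases of a window that lie before its first annotated exon are printed, 5′ to 3′ on the gene's strand, and capitals mark matches to the motifs named below: chr2:181457136-181457201 (plus strand) for ITGA4, chr10:32958233-32958480 (minus strand) for ITGB1 and chr12:54419461-54419516 (minus strand) for ITGA5. The ITGB1 stretch lies inside the gene's annotated span, downstream of other annotated starts.
ITGA4: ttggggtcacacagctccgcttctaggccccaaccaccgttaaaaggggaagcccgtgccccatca
ITGB1: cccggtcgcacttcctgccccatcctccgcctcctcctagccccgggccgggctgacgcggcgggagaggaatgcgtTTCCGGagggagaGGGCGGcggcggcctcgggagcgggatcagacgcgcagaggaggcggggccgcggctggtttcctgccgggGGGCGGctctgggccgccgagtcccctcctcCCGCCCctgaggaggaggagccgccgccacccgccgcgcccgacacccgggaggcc
ITGA5: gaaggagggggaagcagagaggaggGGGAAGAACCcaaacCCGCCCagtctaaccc
The 5 motifs were searched on both strands in the full 300 bases. The ETS core CCGGAA was found for ITGA6 and ITGB1 and in 17.2% of all 35116 windows. TGTGGT, bound by RUNX factors, was found for ITGA6 (13.1% of all windows), and GGGCGG, bound by SP and KLF factors, for ITGA5, ITGA6 and ITGB1 (45.0%). An NF-kB form was found for ITGA5, ITGA6 and ITGB1 (25.6%), and the AP-1 form TGANTCA for ITGA5, 6 bases before the start (7.71%), outside the printed stretch. In the ITGB1 stretch the capitals mark the ETS core and 3 copies of the SP and KLF letters, and in the ITGA5 stretch the NF-kB form and 1 copy of the SP and KLF letters. None of the 5 motifs was found in the windows of ITGA4, ITGAE and ITGB7, which says only that these letters are not in those windows. PMA and calcium signals act on AP-1, NF-kB and NFAT factors as textbook background, and a match here is a description of letters, not of binding.

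ITGAE (chr17:3714628-3801243, minus strand), the alpha chain that retains T cells in epithelium, rose early and fell late. In WT it stood at 117, 120.0 and 106 CPM at 0 h, 177, 175 and 168 at 6 h, 98.9, 88.1 and 102 at 12 h, 59.2, 64.9 and 73.5 at 24 h and 50.1, 43.3 and 50.4 at 36 h. In KO it stood at 70.0, 72.8 and 76.9 at 0 h, 132, 261 and 136 at 6 h, 72.2, 125 and 148 at 12 h, 51.9, 57.8 and 41.4 at 24 h and 42.5, 37.9 and 38.6 at 36 h. In WT the 6 h libraries were the highest without overlap, and in KO the 6 and 12 h libraries overlapped. The rise at 6 h was 0.60 ± 0.19 in WT (edgeR adjusted p = 0.0181) and 1.27 ± 0.19 in KO (edgeR adjusted p = 3.01e-06), and the WT call was lost without WT 0 h library 1 or 3 or WT 6 h library 4 (log2 0.55 to 0.61, edgeR adjusted p = 0.0502 to 0.0777). In KO the 12 h rise was 0.65 ± 0.19 (edgeR adjusted p = 0.00885), lost without KO library 9 (log2 0.43, edgeR adjusted p = 0.129). At 36 h ITGAE had fallen, with a log2 fold change of -1.25 ± 0.19 in WT (edgeR adjusted p = 2.48e-06) and -0.89 ± 0.19 in KO (edgeR adjusted p = 3.77e-04). The fall at 24 h was -0.80 ± 0.19 in WT (edgeR adjusted p = 0.00115) and -0.54 ± 0.19 in KO (edgeR adjusted p = 0.028), the latter lost without KO 0 h library 1, 2 or 3 or KO 24 h library 10 or 12 (log2 -0.57 to -0.39, edgeR adjusted p = 0.0516 to 0.187).

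At rest ITGAE was the one member called between the genotypes, lower in KO with a log2 difference of -0.64 ± 0.19 (edgeR adjusted p = 0.038), with all KO libraries below all WT libraries. The call was lost without any 1 of the 6 libraries (log2 -0.71 to -0.62, edgeR adjusted p = 0.0564 to 0.125). At 6 h the direction depended on KO library 5, which had 261 CPM beside 132 and 136: the log2 difference was 0.02 ± 0.19 with all libraries (edgeR adjusted p = 0.965) and -0.38 without the 4 that stand apart (edgeR adjusted p = 0.00694). At 12 h it was 0.26 ± 0.19 (edgeR adjusted p = 0.416) with all and 0.51 (edgeR adjusted p = 2.41e-04) without them. At 24 and 36 h all KO libraries lay below all WT libraries, with log2 differences of -0.39 and -0.28 that did not pass (edgeR adjusted p = 0.233 and 0.407). The exons of ITGAE share 427 bases with HASPIN (GSG2 in the files) on the other strand, whose counts came to 29.5% of those of ITGAE.

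ITGB7 (chr12:53191318-53207307, minus strand), the beta chain of the gut-homing and epithelial integrins, was the lowest of the 9 in CPM. Library levels ran from 1.98 CPM in WT at 6 h to 15.5 in KO at 24 h, and the fewest ITGB7 counts in a library of each group ran from 27 to 161. It stood at 2.99, 3.89 and 4.95 in WT and 4.59, 4.76 and 2.44 in KO at 0 h, and at 10.7, 8.65 and 4.83 and 15.5, 12.9 and 7.95 at 24 h. It rose at 24 h by 1.02 ± 0.36 in WT (edgeR adjusted p = 0.0242) and 1.68 ± 0.36 in KO (edgeR adjusted p = 3.44e-04), and at 36 h in KO by 1.29 ± 0.36 (edgeR adjusted p = 0.00441). At 12 h in KO the value was 0.91 ± 0.36 and did not pass (edgeR adjusted p = 0.0611), and with the 4 libraries that stand apart left out it was 1.25 (edgeR adjusted p = 2.90e-04). In WT library 12 at 24 h, 4.83 CPM, lay within the 0 h range, and the call was lost without WT 0 h library 1 or 2 or WT 24 h library 10 or 11 (log2 0.76 to 1.00, edgeR adjusted p = 0.0576 to 0.163). The KO 36 h call was lost without KO 0 h library 3 (log2 1.01, edgeR adjusted p = 0.0547). No time gave a call between the genotypes, with log2 differences of -0.07 to 0.85. KO was higher at 12 h by 0.91 without the 4 libraries that stand apart (edgeR adjusted p = 0.0145), against 0.55 with them (edgeR adjusted p = 0.337). ITGB7 shares 1886 exon bases with ZNF740 on the other strand, whose counts came to 145% of its own, so where counting ignored strand its reads cannot be told from those of ZNF740.

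ITGA5 and ITGA6, the fibronectin and laminin chains that pair with ITGB1, were called against 0 h in fewer comparisons than the other members, with all libraries in the fit. ITGA5 (chr12:54395261-54419460, minus strand) stood at 45.8, 50.8 and 54.9 CPM in WT and 43.8, 50.2 and 47.3 in KO at 0 h, and at 52.0, 47.3 and 55.0 against 68.4, 97.3 and 89.9 at 12 h, where every KO library was above every WT library. It rose in KO at 12 h by 0.86 ± 0.15 (edgeR adjusted p = 2.99e-05), and the value in WT was 0.03 ± 0.15 (edgeR adjusted p = 0.918). The genotypes differed at 12 h by 0.73 ± 0.15 (edgeR adjusted p = 9.99e-04). By 36 h ITGA5 had fallen in WT, to 32.8, 32.1 and 33.1, with a log2 fold change of -0.63 ± 0.15 (edgeR adjusted p = 0.00111), and KO stood at 44.2, 38.5 and 44.7 (-0.14 ± 0.15, edgeR adjusted p = 0.507). At 24 and 36 h all KO libraries were above all WT libraries, with log2 differences of 0.44 and 0.38 that did not pass the test (edgeR adjusted p = 0.0626 and 0.0994). Against 0 h the KO value at 24 h was 0.27 (edgeR adjusted p = 0.186), and it was 0.30 and called without the 4 libraries that stand apart (edgeR adjusted p = 0.0307). ITGA5 was also called lower in KO at 6 h without the 4 libraries that stand apart (-0.39, edgeR adjusted p = 0.013).

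ITGA6 (chr2:172427354-172506282, plus strand) was called at no time against 0 h in either genotype with all libraries, at log2 values from -0.28 to 0.47. Leaving out the 4 libraries that stand apart, it was called higher in KO at 12 h (0.63, edgeR adjusted p = 0.00845, against 0.31 and 0.382 with them). Its group means lay between 9.13 and 18.8 CPM. KO stood above WT at 6 h, 15.0, 18.6 and 16.6 against 7.32, 8.07 and 12.0 CPM, and in 2 of 3 libraries at 12 h, 9.44, 22.1 and 24.7 against 8.84, 9.95 and 12.0. The log2 differences were 0.88 ± 0.24 (edgeR adjusted p = 0.0154) and 0.87 ± 0.24 (edgeR adjusted p = 0.0167). The 6 h call was lost without WT library 4 or 5 or KO library 5 (log2 0.74 to 0.80, edgeR adjusted p = 0.0522 to 0.103), and the 12 h call without WT library 7 or 8 or KO library 8 or 9 (log2 0.64 to 0.85, edgeR adjusted p = 0.0673 to 0.115) and with only the 2 groups in the fit (edgeR adjusted p = 0.0776). The lowest KO library at 12 h was number 7, and without the 4 libraries that stand apart the 12 h value was 1.19 (edgeR adjusted p = 7.74e-06).

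Between the genotypes ITGA4 was lower in KO at the 4 times after activation, and the genes higher in KO differed by time. At 0 h 0 of the 9 members was higher in KO (2.96% of all tested genes) and 1, ITGAE, was lower (3.11%). At 6 h 3 were higher, ITGA6, ITGB2 and SELPLG (5.21%), and ITGA4 was lower (4.76%). At 12 h 5 were higher, ITGA5, ITGA6, ITGAL, ITGB2 and SELPLG (6.05%), and ITGA4 was lower (5.52%). At 24 h ITGB1 was higher (4.97%) and ITGA4 lower (4.76%), and at 36 h ITGB1 and ITGB2 were higher (6.95%) and ITGA4 lower (6.52%). The members' median log2 difference was -0.01 at 0 h, 0.02 at 6 h, 0.73 at 12 h, 0.08 at 24 h and 0.35 at 36 h, and that of all genes was farthest from 0 at 6 h, at -0.01. Without the 4 libraries that stand apart, 7, 8 and 1 members were called at 6, 12 and 24 h, beside 4, 6 and 2 with them. Calls over all genes moved as well, to 2791, 2915 and 1774 from 2148, 2494 and 2096. The KO libraries of each time serve here and in the comparisons against 0 h, so the 2 kinds of comparison share samples.

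**Figure D4:**
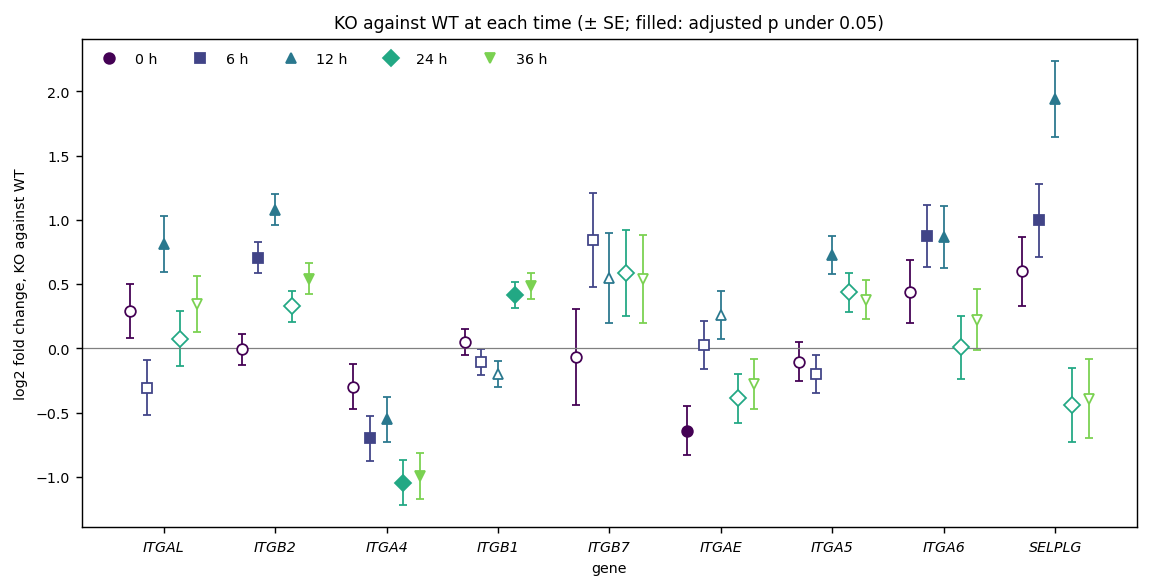
Log2 fold change of KO against WT (y axis, with standard errors) for each gene at 0, 6, 12, 24 and 36 h (marker shapes and colours); filled markers have an edgeR adjusted p under 0.05. ITGA4 lies below 0 at all 5 times, from -0.30 to -1.05, ITGB2 lies above 0 from 6 h on, and SELPLG at 12 h is the largest value, 1.94.

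Whether a response differed between the genotypes was tested directly, as KO's change from 0 h minus WT's change. The tests at the 4 later times share the 0 h libraries of both genotypes. Over the 4 later times together 4 of the 9 members were called (9.84% of all genes): SELPLG (edgeR adjusted p = 4.00e-04), ITGB2 (4.69e-04), ITGB1 (0.0016) and ITGA5 (0.00948). By time, ITGB2 was called at 6 h (3.01% of all genes) with 0.71 ± 0.17, and ITGB2 and ITGA5 at 12 h (2.06%) with 1.09 ± 0.17 and 0.83 ± 0.21. At 24 h 0 of the members were called in edgeR (3.54%), as in DESeq2. At 36 h ITGB1 and ITGB2 were called (9.33%) with 0.43 ± 0.14 and 0.55 ± 0.17. Most of these calls were lost in some fits without 1 library: ITGB2 at 6 h was lost without WT 0 h library 3 or KO 6 h library 5 (log2 0.56 to 0.65, edgeR adjusted p = 0.0542 to 0.0595), and ITGA5 at 12 h without WT 0 h library 3, WT 12 h library 7 or 8, KO 0 h library 1 or KO 12 h library 8 or 9 (log2 0.74 to 0.86, edgeR adjusted p = 0.0542 to 0.0952). At 36 h ITGB1 was lost without any 1 of the 12 libraries except WT 36 h library 3 and KO 36 h library 5 (log2 0.36 to 0.47, edgeR adjusted p = 0.0589 to 0.171) and without the filter on low counts (edgeR adjusted p = 0.17), and ITGB2 without any except WT 0 h library 2 and KO 0 h library 3 (log2 0.48 to 0.60, edgeR adjusted p = 0.052 to 0.111). ITGB2 at 12 h was called in all 12. A fit without 1 library has fewer libraries in that group, and calls over all genes fell as well in some of these fits. At 36 h they were 1289 without WT 0 h library 1 and 1304 without KO 36 h library 6, against 2011. At 6 h they were 380 without KO 0 h library 1, against 649. A lost call with a similar log2 value is therefore not a trait of that library. Leaving out the 4 libraries that stand apart, more of all genes were called: 3937 against 2120 over the times together, 990 against 445 at 12 h and 1143 against 763 at 24 h. Of the members, 8 were then called over the times together, 5 at 12 h and 3 at 24 h. These included SELPLG, whose value was 1.65 at 12 h and -0.95 at 24 h (edgeR adjusted p = 4.43e-09 and 7.28e-04), against 1.34 and -1.04 with all libraries (0.0722 and 0.157). In that fit SELPLG fell less in KO than in WT at 12 h and further at 24 h. ITGAL was then called at 6 h (-0.82, against -0.60 with all libraries) and 12 h (0.75 against 0.52). ITGAE was called at 12 h (1.16 against 0.90) and 24 h (0.48 against 0.25). ITGA4 was called at 24 h (-0.78 against -0.75). The genes added over the times together were ITGAL, ITGAE, ITGA6 and ITGA4.

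The ratio of an alpha chain's counts to those of its beta chain can be read within a library without scaling between libraries. Before activation WT held 3.83 counts of ITGA4 for each count of ITGB1 and KO held 3.01. At 36 h these were 0.975 in WT and 0.348 in KO. On the log2 scale the WT libraries ran from -0.25 to 0.19 and the KO libraries from -1.88 to -1.18 at 36 h. KO was lower at each of the 5 times with no overlap, by log2 differences of -0.35, -0.59, -0.36, -1.43 and -1.49. Over the times the mean difference was -0.84 (exact two-sided permutation test of the genotype within each time, p = 6.25e-07, the smallest it can give, and 4.37e-06 after adjustment over the 7 ratios tested).

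Of the other ratios, ITGA4 to ITGB7 had a larger mean difference, with the libraries of the genotypes apart at 4 of the 5 times. The rest had smaller ones. ITGA4 to ITGB7 was lower in KO, with a mean log2 difference of -1.16 (exact permutation, adjusted p = 3.06e-05) and so was ITGAE to ITGB7, with -0.68 (adjusted exact p = 4.20e-04), both lower at all 5 times, with the limit on ITGB7 given above. ITGAL to ITGB2, the LFA-1 pair, fell from 0.729 to 0.127 counts of ITGAL per count of ITGB2 in WT and from 0.895 to 0.112 in KO. Its mean difference between the genotypes was -0.29 (adjusted exact p = 0.0348), with KO higher at 0 h by 0.30 and lower afterwards (log2 -1.02 at 6 h and -0.18 at 36 h). That call was lost with 0 to 24 h alone (adjusted exact p = 0.0525) and without WT 6 h library 4, 5 or 6, WT 24 h library 10 or 11, KO 0 h library 2, KO 6 h library 4 or KO 24 h library 12 (-0.29 to -0.24, adjusted exact p = 0.0513 to 0.0676). ITGA5 to ITGB1 (0.12), ITGA6 to ITGB1 (0.35) and the ratio of the beta chains ITGB7 and ITGB1, which do not pair (0.32), did not pass (adjusted exact p = 0.282, 0.0938 and 0.139). Without the 4 libraries that stand apart ITGB7 to ITGB1 was 0.36 and passed (adjusted exact p = 0.0396).

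**Figure D5:**
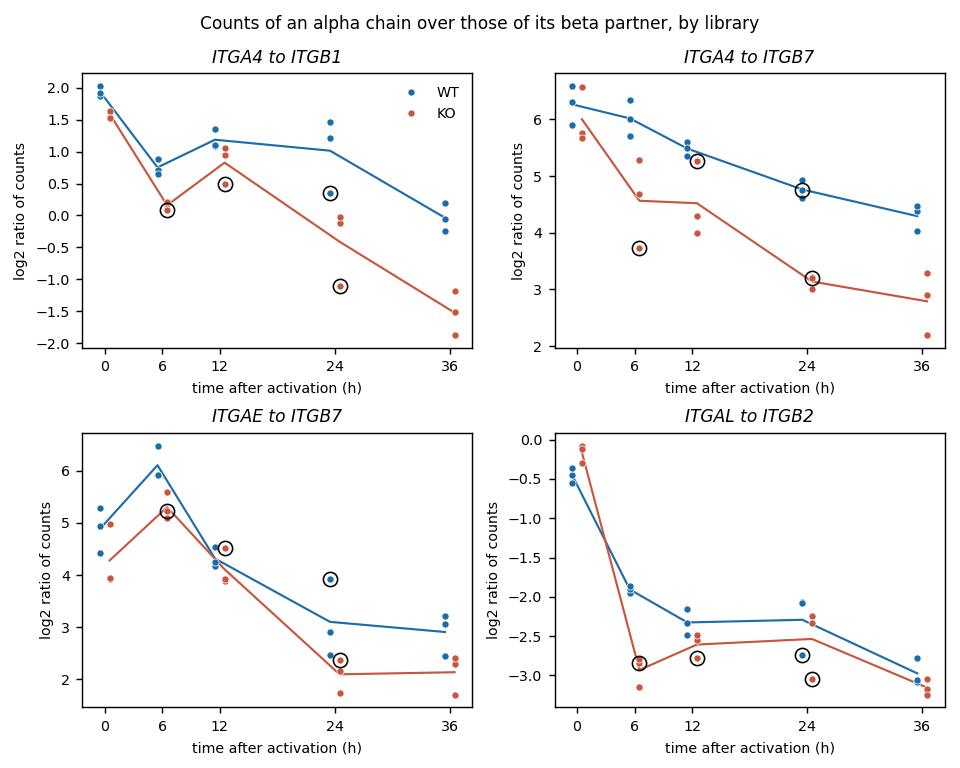
Log2 ratio of the counts of an alpha chain to those of its beta partner in each library (points) against time after activation in h, with group means joined by lines; WT is blue, KO red, and black rings mark the 4 libraries that stand apart. For ITGA4 to ITGB1 every KO library lies below every WT library of the same time, and both genotypes end lower at 36 h than they began.

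Levels of different genes were compared per kilobase of annotated exon. In WT at 0 h SELPLG was highest, at 85.5 CPM per kb, followed by ITGA4 at 37.6, ITGB2 at 24.8, ITGAL at 19.1, ITGAE at 17.2 and ITGB1 at 12.9. ITGA5, ITGA6 and ITGB7 were at 6.66, 1.69 and 0.88. By 36 h ITGB2 and ITGB1 led in both genotypes, at 37.7 and 21.4 CPM per kb in WT and 54.9 and 29.97 in KO, and SELPLG stood at 6.59 and 5.05. At rest SELPLG and ITGA4 had led. In the order of the 10 group means of each gene, neighbours whose libraries did not overlap numbered from 1 of 9 steps for ITGA6, ITGAL and ITGB7 to 5 of 9 for ITGAE.

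Among 10020 other genes with a group mean of at least 10 CPM, those whose 10 group means followed a member most closely were named by rank. For SELPLG these were SEPT9 (r = 0.98), RCAN3 (r = 0.98) and ZFAND2B (r = 0.98). For ITGA4 they were ARHGEF6 (r = 0.99), ATP2B4 (r = 0.99) and CERKL (r = 0.99), the last being the neighbour named above, and for ITGB1 ARMCX6 (r = 0.97), GRIK4 (r = 0.97) and PAM (r = 0.97). For ITGB2 they were PGBD4 (r = 0.98), STK19 (r = 0.98) and EEF1A1P13 (r = 0.96), for ITGAL CENPB (r = 0.97), LAMP2 (r = 0.97) and TTC28-AS1 (r = 0.96), and for ITGAE RNF34 (r = 0.98), GABPB1 (r = 0.98) and CRYM (r = 0.97). The closest for ITGA5 and ITGB7 were AC116366.6 (r = 0.90) and PHF23 (r = 0.97). Among the members themselves SELPLG and ITGAL were the pair most alike (r = 0.94) and ITGA4 and ITGB2 the least (r = -0.82). These correlations are descriptions over 10 group means that share libraries and scaling.

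The other integrin chains were read as a list. Of 18, 17 were tested, and in WT 3, 4, 3 and 8 of them rose and 0, 0, 2 and 1 fell at 6, 12, 24 and 36 h. In KO 4, 4, 7 and 8 rose and 0, 0, 0 and 1 fell. The median of the list at 36 h was 0.57 in WT and 1.17 in KO. Of all genes, 11.8%, 14.8%, 17.3% and 20.1% rose and 10.5%, 15.6%, 17% and 19% fell in WT at these times. In KO 14%, 14.1%, 16.1% and 18.6% rose and 13.2%, 13.7%, 16.7% and 18% fell. In WT at 24 h 3 of 17 higher was near the share of all genes. ITGAD, an alpha chain that pairs with ITGB2, appeared late: 0.185 ± 0.11 CPM at 0 h and 43.8 ± 3.24 at 36 h in WT (SD, n = 3), and 0.0267 ± 0.0232 and 65.5 ± 4.85 in KO. ITGA1, a collagen-binding partner of ITGB1, rose at 6 h in WT (1.17 ± 0.25, edgeR adjusted p = 6.39e-04) and in KO (1.32 ± 0.26, edgeR adjusted p = 1.57e-04) and at 12 h in both. In WT it had fallen by 36 h (-2.44 ± 0.30, edgeR adjusted p = 4.82e-08), and at 12 h it stood at 16.7 ± 4.13 CPM in WT and 30.4 ± 7.68 in KO (edgeR adjusted p against 0 h = 0.0393 and 1.22e-07). Between the genotypes 2, 1, 1, 3 and 3 of the 17 were called at 0, 6, 12, 24 and 36 h. At these times 2.96%, 5.21%, 6.05%, 4.97% and 6.95% of all genes were higher and 3.11%, 4.76%, 5.52%, 4.76% and 6.52% lower in KO.

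Ligands of these integrins were also read, since T cells carry some of them. Of 17 in the table, all tested, 4, 5, 4 and 5 rose in WT and 8, 7, 4 and 4 in KO at 6, 12, 24 and 36 h. At 6 h 1 fell in WT and 1 in KO. The shares of all genes ran from 11.8% to 20.1% higher in WT and 14% to 18.6% in KO. The 4 of 17 at 36 h in KO were near the latter. VCAM1, the ligand of VLA-4 on endothelium, went from 0.0836 ± 0.0729 CPM at 0 h to 28.5 ± 2.44 at 36 h in WT and from no count in any of 3 libraries to 16.0 ± 1.43 in KO. KO was higher than WT at 6 h, at 11.05 ± 4.25 against 3.02 ± 0.779 CPM (1.87 ± 0.31, edgeR adjusted p = 7.38e-05) and lower at 24 h (-1.19 ± 0.29, edgeR adjusted p = 0.00688). ICAM1, a ligand of LFA-1, rose in KO at 12 h from 1.04 ± 0.204 to 17.4 ± 4.26 CPM (edgeR adjusted p = 2.18e-12). ICAM3, the ICAM of resting leukocytes, was lower in KO at 36 h, 168 ± 12.0 against 239 ± 5.18 CPM (-0.51 ± 0.12, edgeR adjusted p = 0.00262). The medians of the list at 36 h were 0.20 and 0.38.

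Genes listed for the control of integrin activation, whether they promote or oppose it, moved both ways. Of 25, all tested, 9, 6, 10 and 13 rose and 8, 5, 5 and 7 fell in WT. In KO 6, 9, 10 and 10 rose and 8, 8, 6 and 8 fell. The medians at 36 h were 0.41 and 0.27. All genes ran from 11.8% to 20.1% higher and 10.5% to 19% lower in WT, and 14% to 18.6% and 13.2% to 18% in KO. RAP1A, the small GTPase that drives integrin activation, rose at every time, at 36 h by 1.71 ± 0.13 in WT and 1.96 ± 0.13 in KO (edgeR adjusted p = 8.13e-13 and 1.51e-14). It was higher in KO than in WT at 0 h by 0.51 ± 0.13 (edgeR adjusted p = 0.0157), at 6 h by 0.88 ± 0.12, at 24 h by 0.89 ± 0.12 and at 36 h by 0.77 ± 0.12 (edgeR adjusted p = 3.32e-06, 3.94e-06 and 2.51e-05). RAP1B, its close relative, was lower in KO at 24 h, with a log2 difference of -0.86 ± 0.12 (edgeR adjusted p = 9.32e-06). CD47, an integrin-associated protein, fell, with log2 fold changes of -2.01 ± 0.11 in WT and -1.72 ± 0.11 in KO at 36 h (edgeR adjusted p = 5.43e-16 and 1.69e-14). RASGRP2, an exchange factor for RAP1, fell in KO from 29.97 ± 1.91 to 1.32 ± 0.186 CPM at 36 h (edgeR adjusted p = 4.39e-11). FERMT3, which encodes kindlin-3, was higher in KO at 12 h by 0.82 ± 0.11 (edgeR adjusted p = 2.37e-06). FYB, the adaptor ADAP, was lower in KO at 36 h, with -1.15 ± 0.15 (edgeR adjusted p = 9.73e-07).

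The complex that forms on the inner side of a bound integrin had more genes called higher than lower at each time. Of 24 tested of 26, 10, 10, 12 and 13 rose and 0, 3, 4 and 3 fell in WT. In KO 12, 13, 13 and 12 rose and 2, 3, 3 and 3 fell. The medians at 36 h were 0.76 and 0.78. The shares of all genes ran from 11.8% to 20.1% higher and 10.5% to 19% lower in WT, and 14% to 18.6% and 13.2% to 18% in KO. CD82, a tetraspanin, rose by 1.72 ± 0.11 in WT and 2.40 ± 0.11 in KO at 36 h (edgeR adjusted p = 3.62e-15 and 1.10e-18), and NEDD9, a docking protein of lymphocyte integrin signalling, by 2.36 ± 0.16 and 2.38 ± 0.15 (edgeR adjusted p = 2.12e-14 and 1.34e-14). Between the genotypes 3, 9, 7, 4 and 5 of the list were higher in KO at 0, 6, 12, 24 and 36 h and 1, 2, 1, 2 and 2 lower. Of all genes 2.96% to 6.95% were higher and 3.11% to 6.52% lower. NEDD9 was higher in KO at 6 h by 1.51 ± 0.14 and at 12 h by 0.99 ± 0.15 (edgeR adjusted p = 2.32e-09 and 1.12e-05). VCL, which encodes vinculin, was higher in KO at 36 h, 57.8 ± 3.17 against 15.8 ± 4.47 CPM (1.85 ± 0.18, edgeR adjusted p = 4.30e-09). PXN, which encodes paxillin, a protein that binds the tail of the ITGA4 product, was higher in KO at 12 h by 1.07 ± 0.16 (edgeR adjusted p = 1.36e-05). CD53, a leukocyte tetraspanin, was higher in KO already at 0 h, by 0.61 ± 0.10 (edgeR adjusted p = 9.36e-05).

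On the rolling side, the genes of selectins and of the modification of their ligands moved in both directions. Of 21, all tested, 9, 7, 9 and 6 rose and 3, 2, 3 and 4 fell in WT. In KO 7, 6, 6 and 7 rose and 4, 2, 4 and 2 fell. The medians at 36 h were 0.27 and 0.30. All genes ran from 11.8% to 20.1% higher and 10.5% to 19% lower in WT, and 14% to 18.6% and 13.2% to 18% in KO. The 4 of 21 lower at 36 h in WT were near the share of all genes. TPST2, a sulfotransferase that modifies PSGL-1, rose at 6 h by 2.33 ± 0.16 in WT and 2.60 ± 0.16 in KO (edgeR adjusted p = 2.09e-13 and 1.07e-14). GCNT1, which builds the branched glycan that P-selectin needs, rose in KO at 24 h from 5.08 ± 0.475 to 33.7 ± 9.51 CPM (edgeR adjusted p = 1.12e-10) and was higher there than in WT by 0.99 ± 0.23 (edgeR adjusted p = 0.00338). ST3GAL6, a sialyltransferase of the same glycan, was higher in KO at 6 h, 34.4 ± 0.389 against 7.64 ± 0.691 CPM (2.17 ± 0.20, edgeR adjusted p = 1.65e-09). SPN, which encodes another selectin ligand, CD43, was higher in KO at 0 h, with 0.48 ± 0.14 (edgeR adjusted p = 0.0331). At 36 h it was lower in KO, with -0.92 ± 0.14 (edgeR adjusted p = 1.19e-05).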

How the data were processed

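Messenger RNA of 30 libraries of Jurkat E6-1 cells was read. The authors deposited expected counts, 1 table per library, with 54300 gene symbols. The tools STAR, cutadapt and DESeq2 and builds hg19 and GRCh37 are listed, per the submitters' processing notes. Which program counted, with which annotation and strand setting, is not given in the sources used here. The values were not whole for 195 symbols (0.177% of values) and were rounded. Groups were taken from the labels. The 9 members and the gene lists were chosen with earlier results of these data known.

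Counts were tested in R 4.3.3 with edgeR 4.0.16 (TMM scaling, filterByExpr with a minimum count of 10, 1 quasi-likelihood fit of all 30 libraries, Benjamini-Hochberg adjustment over 21554 symbols within a comparison), a step checked on simulated counts. Replicates of a group differed by more than counting noise (lowest chi-square per degree of freedom 4.15). Ratios of counts of 2 chains were compared by an exact permutation of genotype within time. Alternatives were RLE scaling, no filter, DESeq2 1.42.0, a fit of the compared groups only, a replicate block, and each library left out in turn. Leaving out the 4 libraries that stand apart was added after the data were seen. All 9 members were named, and in each comparison up to 4 genes of a pathway list with the smallest p among those called at 10 CPM or more in a compared group. Some genes that this rule picks are not reported here.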

Additional observations from a re-analysis of the deposited data

Results flagged for a closer look

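The change from 0 h differed between KO and WT in edgeR's test of that difference for ITGB2 at 6 h (log2 0.712), 12 h (1.09) and 36 h (0.547), for ITGA5 at 12 h (0.833) and for ITGB1 at 36 h (0.435), in each case with a more positive change in KO. Over the 4 later times together the difference was called for SELPLG (edgeR adjusted p = 0.0004), ITGB2 (0.000469), ITGB1 (0.0016) and ITGA5 (0.00948). SLAMF6, the edited gene, was called in the same test (edgeR adjusted p = 0.0311) and at 24 h (log2 0.77).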

How the results depend on the processing

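Of 74 called values of the members, 54 were called in every fit that left out 1 library and 20 were lost at least once. The number of members called then ranged in WT from 4 to 5 at 6 h, 2 to 3 at 12 h and 5 to 6 at 24 h and was 7 at 36 h, and in KO it was 5 at 6 h and ranged from 5 to 8, 6 to 7 and 6 to 7 at 12, 24 and 36 h. Between the genotypes it was 0 at 0 h, 2 to 4 at 6 h, 3 to 5 at 12 h, 1 to 3 at 24 h and 3 at 36 h, and for the difference in response 0 to 1, 1 to 4, 0 to 1, 0 to 1 and, over the times together, 4 to 7. Calls over all genes moved as well. Between the genotypes they were 651 against 1309 at 0 h without WT library 1 and 1373 against 2148 at 6 h without WT library 6. At 12 h they were 1366 against 2494 without WT library 8. Where no count over all genes is given, here or below, the count of members does not set these genes apart from others.

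Without the filter on low counts the members called between the genotypes at 0 h were 2, and for the difference in response 2 at 6 h, 4 at 12 h, 2 at 24 h and 8 over the times together. With only the 2 groups compared they were 3 at 0 h, 0 at 24 h and 5 at 36 h. At 24 h genes called fell to 941 from 2096. Without the 4 libraries that stand apart members called between the genotypes were 7 at 6 h and 1 at 24 h. Genes called there were 2791 against 2148 and 1774 against 2096. For the difference in response members called were 2, 5, 3 and 8 at 6, 12 and 24 h and jointly. Genes called were then 1299 against 649 at 6 h, 990 against 445 at 12 h, 1143 against 763 at 24 h and 3937 against 2120 jointly. DESeq2 called 1061, 710 and 1250 genes in the difference in response at 6, 12 and 24 h.

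Whether the title numbers pair the libraries was not settled. Of 12 same-numbered pairs 1 had a correlation of deviations above 0.1 (-0.01 to 0.13), and a cutoff on so few pairs cannot exclude a weak pairing. The highest value was that of library 12 at 24 h, which stands apart in both genotypes. With the replicate block, 3 members were called between the genotypes at 0 h against 1, and ITGAE at 6 h was -0.035.

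Values near 0 changed sign and the cause was not tested: SLAMF6 between the genotypes at 12 h (-0.038 with RLE scaling and with DESeq2, -0.0066 with only the 2 groups compared), ITGA6 at 24 h (-0.014 with RLE scaling, -0.015 with DESeq2, -0.12 without the 4 libraries) and ITGA5 in WT at 12 h (-0.010 without the filter). Without the 4 libraries ITGAE between the genotypes at 6 h was -0.38, ITGB7 and ITGA5 in KO at 6 h were -0.19 and -0.097, ITGB1 in KO at 12 h was -0.016 and the difference in response of SELPLG at 6 h was -0.079.

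With 1 library left out, 13 uncalled values changed sign. Between the genotypes these ranged from -0.067 to 0.064 for ITGB2 and -0.31 to 0.20 for ITGB7 at 0 h, -0.37 to 0.20 for ITGAE at 6 h, -0.050 to 0.12 for SLAMF6 at 12 h, and -0.19 to 0.15 for ITGA6 and -0.13 to 0.30 for ITGAL at 24 h. Against 0 h they ranged from -0.078 to 0.086 for ITGA5 in WT at 12 h, and in KO at 6 h from -0.076 to 0.22 for ITGA5 and -0.17 to 0.54 for ITGB7. The difference in response ranged from -0.26 to 0.022 for ITGA5 and -0.064 to 0.60 for SELPLG at 6 h, and for ITGAL from -0.43 to 0.014 at 24 h and -0.069 to 0.19 at 36 h.

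The balance of ITGAL to ITGB2 was -0.31 (adjusted exact p = 0.0525) with 0 to 24 h alone, and that of ITGA6 to ITGB1 0.51 (0.0401). Without the 4 libraries ITGB7 to ITGB1 was 0.36 (0.0396). With 1 library left out the ranges were -0.33 to -0.24 for ITGAL to ITGB2, 0.28 to 0.44 for ITGA6 to ITGB1 and 0.24 to 0.43 for ITGB7 to ITGB1. ITGB7 rests on 27 to 307 counts a library.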
